A study of Mus musculus with 2 samples.

Results

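The sites described here are the predicted target sites of 4 microRNA seeds, those of miR-22-3p, miR-135a-5p, miR-150-5p and miR-296-3p, in transcripts expressed by mouse embryonic stem cells. They are the 7mer and 8mer entries of the deposited site table whose letters begin with the reverse complement of bases 2 to 8 of the microRNA, made distinct by position and strand. There were 18765 such sites, 5997 for miR-22-3p, 4828 for miR-135a-5p, 4700 for miR-150-5p and 3240 for miR-296-3p. The table held 203061 distinct 7mer and 8mer sites of 50 listed seeds, and 1619021 distinct sites in all. No measured value entered the choice. For the shares below, 503 7mers lying inside an 8mer of the same seed were left out, which left 18262.

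Ago2, the Argonaute protein that holds a microRNA and its target, was mapped by iCLIP, a method in which protein and RNA are crosslinked in living cells and the RNA fragments bound to the protein are sequenced. The tagged library came from TT-FHAgo2, a clonal stem cell line with doxycycline-inducible human Ago2 carrying FLAG and HA tags. The control library came from TT-Ago2, a clonal line whose human Ago2 had no tag. In both lines the human protein was the only Argonaute family member. Both were propagated with 0.1 µg/mL doxycycline, brought to 2.5 µg/mL for 24 h to reach wild-type Ago2 levels, and grown in serum with leukemia inhibitory factor. Each group was 1 library of 1 clone, so no difference has a replicate check, and the intervals given cover counting error only. Reads that are PCR copies of 1 molecule are not independent, which the intervals leave out. The reads at sites come from 789000 reads of the tagged library. The untagged library enters only through the enrichment values of clusters, which are stretches of RNA with more tagged than untagged reads, and its numbers are those implied by these values, on an unknown scale. All 10 stem cell markers were listed, at 40.3 to 1655 FPKM, the unit of transcript level per length and depth. Listed markers of primitive endoderm (2 of 4) lay between 0.165 and 0.530 FPKM and those of trophectoderm (2 of 4) between 0.957 and 9.85 FPKM, and 4 of 5 neural and mesoderm markers lay between 0.407 and 40.1 FPKM. Of 4 fibroblast markers, Thy1 was listed at 1.89 and Vim at 45.0 FPKM.

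MicroRNAs find their targets by pairing the seed, the bases near their 5′ end, with a messenger RNA, most often in its 3′ UTR, and Argonaute then recruits factors that block translation and shorten the poly(A) tail. The 4 microRNAs come from separate genes and do not share a seed. miR-22 is known from heart muscle and blood, where it targets the DNA demethylation enzyme Tet2. miR-135a shares its seed with miR-135b and is known for repressing Apc, a brake on Wnt signalling. miR-150 is abundant in mature lymphocytes and represses the transcription factor Myb. miR-296 lies in the imprinted Gnas region. The mature sequences below, from RefSeq on GRCm38.p6, show in capitals the seed that defines each set of sites.
miR-22-3p: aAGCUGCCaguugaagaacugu
miR-135a-5p: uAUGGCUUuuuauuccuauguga
miR-296-3p: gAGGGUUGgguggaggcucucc

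The 7mer searched for was GGCAGCT for miR-22-3p, AAGCCAT for miR-135a-5p, TTGGGAG for miR-150-5p and CAACCCT for miR-296-3p. The 8mer adds an A after it, the base that Argonaute itself prefers opposite the first base of the microRNA. The sites below carry reads and show the match, in capitals, with the neighbouring letters that overlapping entries of the table supply. The first is a miR-150-5p site in Myb, the next a miR-150-5p site in Larp4b, then a miR-135a-5p site in Lmbr1l, a miR-22-3p site in Ankrd52 and a miR-296-3p site in Mt2. Their 1-based mm9 positions are chr10:20845016-20845023 on the minus strand, chr13:9171768-9171774 on the plus strand, chr15:98734573-98734579 on the minus strand, chr10:127828281-127828288 on the plus strand and chr8:96697392-96697398 on the plus strand. The letters beside the Lmbr1l match are part of another listed 8mer, whose microRNA has a different seed.
Myb: TTGGGAGA
Larp4b: gcacTTGGGAG
Lmbr1l: AAGCCATgtttaca
Ankrd52: tcaggGGCAGCTA
Mt2: ttgtaCAACCCT

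Sites of miR-22-3p and miR-296-3p carried Ago2 reads somewhat more often than control sequences, and those of miR-135a-5p and miR-150-5p about as often as control sequences. A site was called supported when at least 1 read of the tagged library lay on it. Of the miR-22-3p sites, 627 of 5893 were supported (10.6%, exact Clopper-Pearson 95% interval 9.86 to 11.5). Of the miR-296-3p sites, 268 of 3136 were (8.55%, 7.59 to 9.58), of the miR-135a-5p sites 335 of 4655 (7.20%, 6.47 to 7.98), and of the miR-150-5p sites 320 of 4578 (6.99%, 6.27 to 7.77). The background was 13.3% in 7mers and 8mers of the other listed seeds and 7.21% in control 8mers, the 8mers of the table that extend none of the listed 7mers. Control 8mers include seed matches of microRNAs outside the 50 listed seeds, so they are not a set free of microRNA target sites. The 4 seeds therefore all lay below the pooled share of the other listed seeds.

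Support depends on where a site lies and how strongly its transcript is expressed, so each seed's supported sites were also divided by the count expected if its sites had the support of control 8mers of like region and expression (steps of 0.5 log2 FPKM). This observed over expected ratio was 1.34 for miR-22-3p (1.24 to 1.44), 1.22 for miR-296-3p (1.08 to 1.36), 0.962 for miR-150-5p (0.862 to 1.07) and 0.958 for miR-135a-5p (0.861 to 1.06). Among the 50 listed seeds, ordered from the highest ratio down, they held ranks 31, 36, 45 and 46. The median of the 50 was 1.44 and the range 0.719 to 5.14. The intervals of miR-22-3p and miR-296-3p overlap each other and lie above 1, and those of miR-150-5p and miR-135a-5p overlap each other and hold 1. Sites near each other can share reads, which these intervals leave out.

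**Figure D1:**
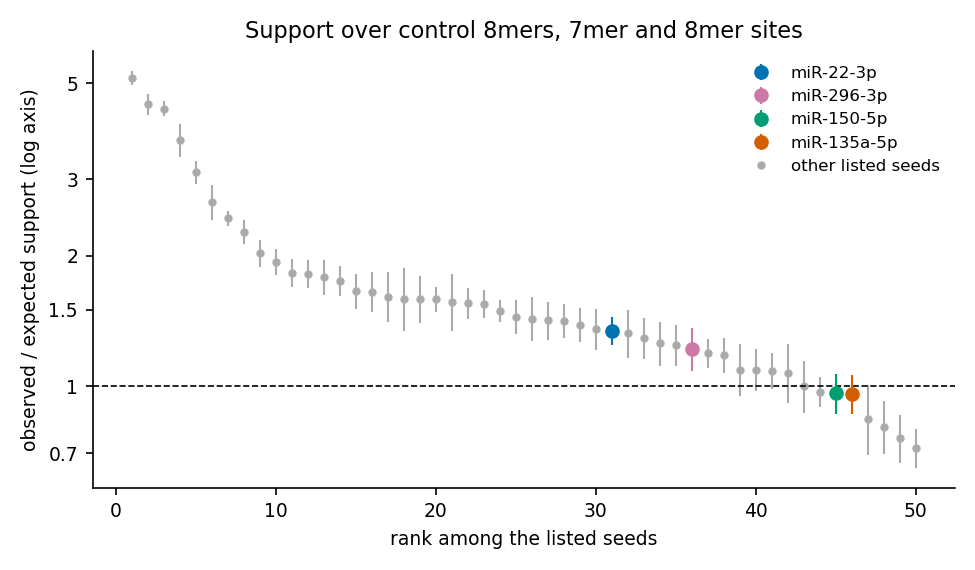
Observed over expected support (log axis) of the 7mer and 8mer sites of each of the 50 listed seeds, ordered by rank, with exact 95% binomial intervals as bars and a dashed line at 1. The miR-22-3p and miR-296-3p points lie above the line at 1.34 and 1.22, and the miR-150-5p and miR-135a-5p points lie at 0.962 and 0.958 with bars that cross it.

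By region, support was highest in 3′ UTRs. There, 338 of 2072 miR-22-3p sites carried a read (16.3%, 14.7 to 17.98), as did 142 of 1116 miR-296-3p sites (12.7%, 10.8 to 14.8), 206 of 1797 miR-135a-5p sites (11.5%, 10.03 to 13.0) and 229 of 2078 miR-150-5p sites (11.0%, 9.71 to 12.4). The background in 3′ UTRs was 20.8% for the other listed seeds and 11.5% for control 8mers. Only the miR-22-3p interval lies above the control share. In coding sequence the shares were 9.86% for miR-22-3p (218 of 2210), 10.9% for miR-296-3p (105 of 965), 7.53% for miR-135a-5p (111 of 1475) and 8.50% for miR-150-5p (60 of 706), with 13.6% for the other listed seeds and 8.46% for control 8mers. The ratio over control in coding sequence was 1.22 (1.07 to 1.38) for miR-22-3p and 1.30 (1.07 to 1.56) for miR-296-3p. For miR-296-3p the ratio in 3′ UTRs was 1.16 with an interval that holds 1 (0.986 to 1.35), so its excess over control was measured in coding sequence and over all regions.

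The 3′ UTR share exceeded the coding share by 6.45 percentage points for miR-22-3p (Newcombe 95% interval 4.43 to 8.48) and by 3.94 points for miR-135a-5p (1.92 to 5.93). For miR-150-5p the difference was 2.52 points (-0.0979 to 4.84) and for miR-296-3p 1.84 points (-0.958 to 4.60), and both of these intervals hold 0. They came to lie above 0 for miR-150-5p at 1 FPKM or more (3.57 points, 0.205 to 6.52) and for miR-296-3p with at least 2 reads (2.01 points, 0.305 to 3.72). Control 8mers had the same order, with 11.5% in 3′ UTRs and 8.46% in coding sequence. A higher 3′ UTR share is therefore not particular to these seeds. In 5′ UTRs, 60 of 555 miR-22-3p sites were supported (10.8%), 15 of 162 of miR-296-3p (9.26%), 17 of 314 of miR-150-5p (5.41%) and 6 of 158 of miR-135a-5p (3.797%), against 11.2% for the other listed seeds and 7.01% for control 8mers. The 5′ UTR ratio over control was 1.39 for miR-22-3p (1.07 to 1.76). Long noncoding RNA gave 35 supported sites among 4054 of the 4 seeds (0.863%, 0.602 to 1.20), against 0.839% for the other listed seeds and 0.505% for control 8mers, and 1.62 times (1.13 to 2.24) the number expected from control. By seed this ratio was 2.04 for miR-150-5p (1.12 to 3.41, 14 sites), 1.77 for miR-22-3p (0.810 to 3.34), 1.42 for miR-296-3p (0.462 to 3.30) and 1.13 for miR-135a-5p (0.456 to 2.32). Only the miR-150-5p interval lies above 1. Long noncoding RNA held the transcripts with the most sites. The noncoding linc211 held 61 miR-135a-5p sites, 71 miR-150-5p sites and 53 miR-296-3p sites, of which 0, 1 and 0 had a read. In linc142, none of 44 miR-22-3p sites and none of 53 miR-150-5p sites had a read, and ENSMUST00000154380 had reads at 1 of 43, 1 of 53, 0 of 63 and 0 of 39 sites of miR-22-3p, miR-135a-5p, miR-150-5p and miR-296-3p. ENSMUST00000125353 (39 miR-22-3p sites), linc220 (45 of miR-135a-5p) and linc210 (33 of miR-296-3p) had a read at 0 of them.

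Match length was compared within each seed. Of 8 differences between 8mers and 7mers, for 4 seeds in 2 regions, the 3′ UTR value of miR-22-3p was the only one whose interval lay apart from 0. There its 8mers were supported at 55 of 263 (20.9%, 16.2 to 26.3), its 7mers at 283 of 1809 (15.6%) and its 6mers at 680 of 5071 (13.4%). The 8mers exceeded the 7mers by 5.27 points (Newcombe interval 0.461 to 10.8), and the 8mer share was close to the 21.8% of 3′ UTR 8mers of the other listed seeds. With support set at 2 reads or more the difference was 1.63 points and its interval held 0 (-1.25 to 5.61). The miR-135a-5p 8mers had reads at 48 of 363 (13.2%), against 158 of 1434 7mers (11.0%), a difference of 2.21 points (-1.35 to 6.36). For miR-150-5p the 8mers had reads at 55 of 552 (9.96%), against 174 of 1526 7mers (11.4%), a difference of -1.44 points (-4.24 to 1.72). For miR-296-3p the 8mers had reads at 16 of 169 (9.47%), against 126 of 947 7mers (13.3%), a difference of -3.84 points (-8.08 to 1.89). These last 3 intervals hold 0, so no order of the match types was detectable at this depth. The 6mer shares were 12.6% for miR-135a-5p, 11.4% for miR-150-5p and 11.5% for miR-296-3p. Over control they were 1.10 times (1.02 to 1.19), 0.999 times and 0.988 times as often supported, and the intervals of miR-150-5p and miR-296-3p held 1. In coding sequence the 8mer minus 7mer difference was -2.63 (-5.60 to 1.39) for miR-22-3p, 0.845 (-2.57 to 5.60) for miR-135a-5p, -2.93 (-6.83 to 1.65) for miR-150-5p and -0.195 (-4.91 to 6.32) for miR-296-3p, with all 4 intervals holding 0.

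**Figure D2:**
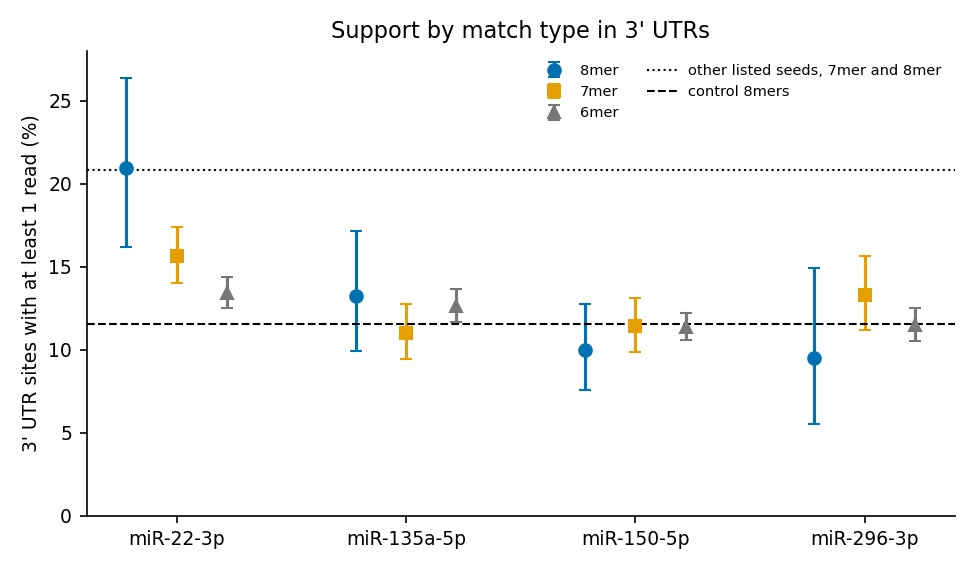
Percentage of 3′ UTR sites with at least 1 read for the 8mer, 7mer and 6mer matches of each seed, with exact 95% binomial intervals. The dotted line marks the 7mers and 8mers of the other listed seeds together (20.8%) and the dashed line the control 8mers (11.5%). The miR-22-3p 8mers at 20.9% are the highest point.

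Support was higher in better expressed transcripts for all 4 seeds, as it was for control 8mers. From under 1 FPKM, through 1 to 10 FPKM, to 10 FPKM or more, 5.88%, 13.9% and 31.3% of miR-22-3p sites in 3′ UTRs carried a read. The same steps gave 5.37%, 9.41% and 21.5% for miR-135a-5p, 4.90%, 9.70% and 19.4% for miR-150-5p, and 5.75%, 11.4% and 24.7% for miR-296-3p. Control 8mers had 4.24%, 10.8% and 20.5%, and the other listed seeds 8.89%, 20.3% and 33.6%. At 10 FPKM or more the miR-22-3p interval (27.5 to 35.3) lies above the control share and holds that of the other listed seeds, while those of miR-135a-5p, miR-150-5p and miR-296-3p hold the control share.

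**Figure D3:**
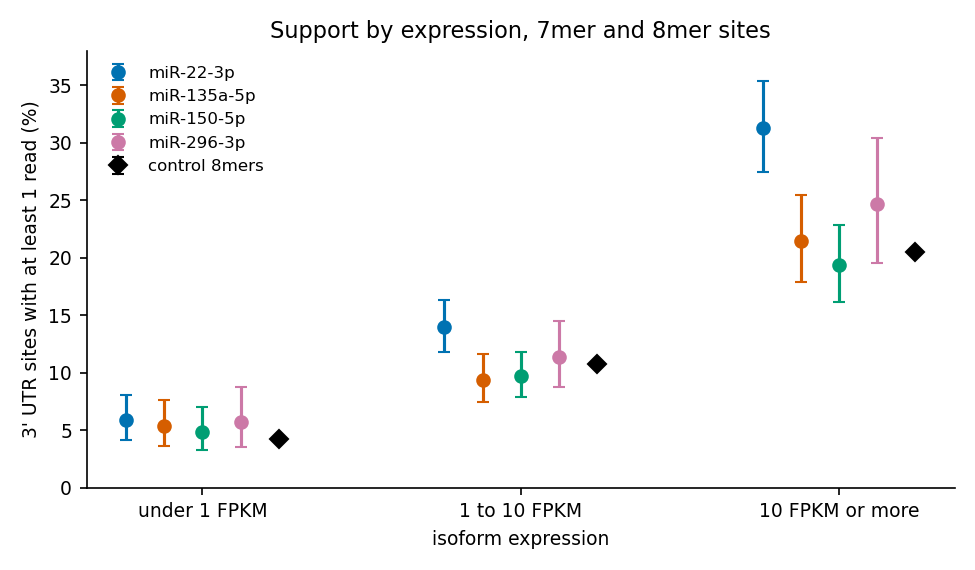
Percentage of 3′ UTR 7mer and 8mer sites with at least 1 read in 3 ranges of isoform expression (FPKM), for each seed and for control 8mers, with exact 95% binomial intervals. At 10 FPKM or more the miR-22-3p sites reach 31.3%, against 20.5% of the control 8mers.

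Conserved sites in 3′ UTRs were supported more often than less conserved ones for miR-22-3p, miR-135a-5p and miR-150-5p. PhastCons is a score from 0 to 1 of how slowly a sequence has changed between species. At a score of 0.9 or more, 24.4% of miR-22-3p sites had a read (20.2 to 28.9), against 14.4% below it. The shares were 19.2% against 8.69% for miR-135a-5p and 21.0% against 9.64% for miR-150-5p, and these 3 pairs of intervals do not overlap. For miR-296-3p they were 13.6% (8.13 to 20.9) and 12.6%, with 125 conserved sites, and no difference was detectable. Control 8mers showed the same order, 17.8% against 10.2%. Their conserved share lies within the intervals of conserved miR-135a-5p (15.7 to 23.0) and miR-150-5p sites (16.2 to 26.6) and below that of conserved miR-22-3p sites. In coding sequence, miR-296-3p had 13.3% (10.6 to 16.4) of its conserved sites supported, against 7.36% of the others. The shares were 10.9% against 7.73% for miR-22-3p, 9.21% against 7.02% for miR-150-5p and 7.46% against 7.66% for miR-135a-5p, where the other listed seeds had 15.0% and 11.0% and control 8mers 9.40% and 6.70%. Conserved and other 3′ UTR sites were not matched on expression.

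Most supported sites held a single read. They made up 428 of 627 miR-22-3p sites (68.3%), 246 of 335 of miR-135a-5p (73.4%), 224 of 320 of miR-150-5p (70%) and 180 of 268 of miR-296-3p (67.2%), against 58.0% for the other listed seeds and 71.1% for control 8mers. At least 5 reads lay on 38 miR-22-3p sites (6.06%), 16 of miR-135a-5p (4.78%), 26 of miR-150-5p (8.13%) and 19 of miR-296-3p (7.09%), against 13.7% for the other listed seeds and 5.77% for control 8mers. In the same order the sites of the 4 seeds held 1208, 618, 662 and 513 reads, and the reads of neighbouring sites can be the same ones. No source used here gives the window over which the authors counted reads at a site, and a site can hold more reads than its cluster. A few sites weighed heavily: the miR-135a-5p site in Txnip held 14.9% of all reads on sites of that seed, and the miR-150-5p site in the same gene 7.10%.

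**Figure D4:**
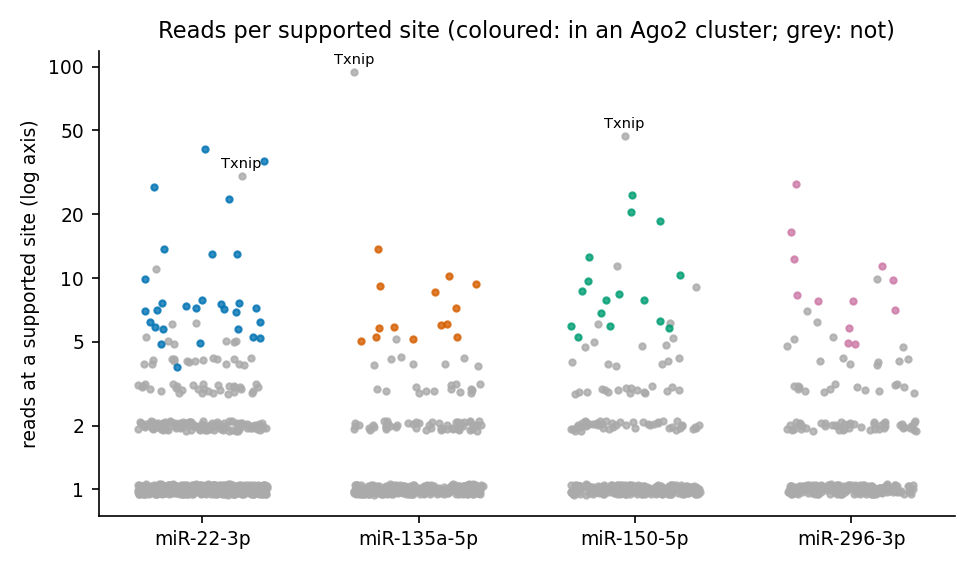
Reads of the tagged library at each supported site (log axis, points spread sideways and slightly up or down for visibility), with sites in an enriched cluster coloured and others grey. Most points lie at 1 read, and the Txnip sites at 92, 47 and 31 reads are marked for miR-135a-5p, miR-150-5p and miR-22-3p.

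Few sites lay in an enriched cluster. An overlap of at least 1 nt on the same strand was found for 29 miR-22-3p sites (0.492%, 0.330 to 0.706), 14 miR-135a-5p sites (0.301%, 0.165 to 0.504), 17 miR-150-5p sites (0.371%, 0.216 to 0.594) and 12 miR-296-3p sites (0.383%, 0.198 to 0.667). The background was 1.48% for the other listed seeds and 0.318% for control 8mers. In 3′ UTRs the shares were 1.21% for miR-22-3p, 0.668% for miR-135a-5p, 0.818% for miR-150-5p and 0.896% for miR-296-3p, with 3.08% for the other listed seeds and 0.686% for control 8mers. Of these sites 64 lay in 3′ UTRs and 6 in coding sequence, 3 of them of miR-22-3p (0.136% of its coding sites), with 0.669% for the other listed seeds and 0.167% for control 8mers there. The 72 sites fell in 71 clusters of 67 genes, which held 909 tagged reads and 19 untagged ones. No untagged read was implied for 58 of the 71 clusters, and the median cluster held 8 tagged reads (5 to 85). The authors' threshold on the excess of tagged reads sets part of this contrast, so it was not tested again. The whole site lay inside its cluster for 25 miR-22-3p, 9 miR-135a-5p, 13 miR-150-5p and 9 miR-296-3p sites.

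The miR-22-3p site with the most reads was in the 3′ UTR of Zfp91, a zinc finger ubiquitin ligase, at chr19:12844069-12844075, with 40 reads at 25.9 FPKM and a phastCons of 1. Its cluster held 35 tagged reads against 4 untagged (8.75-fold), and 2 other listed matches, GGCACTT with 49 reads and GCACTTTA with 51, lay 13 and 14 nt downstream. In Cdt1, which licenses DNA replication, the 8mer at chr8:125096624-125096631 had 35 reads, in a cluster of 65 against 1 with no other listed 7mer or 8mer. Its crosslink peak, the position with the most crosslink events, lay 38 and 37 nt upstream of the match. The site in Ubn1, a partner of the histone chaperone HIRA, had 28 reads in a cluster of 26 against 2, with AGCACTT matches 36 and 26 nt upstream at 26 reads each. The site in Mlec, an endoplasmic reticulum lectin, had 23 reads in a cluster of 34 against 1 with no other listed 7mer or 8mer. The noncoding linc444 had 14 reads on an 8mer, and a cluster of 11 against 2 reached only its last bases. Zfp91, Ubn1 and linc444 thus share the cluster with another listed 7mer or 8mer, and Cdt1 and Mlec do not. The Cdt1 and Mlec clusters each held 2 listed 6mers of other seeds.

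Larger clusters could hold few reads on the match itself. The Tbx3 cluster, in the 3′ UTR of a T-box transcription factor, had 85 tagged reads against 1 untagged, the lowest p of the 71 clusters in the authors' deposited table. Only 8 reads lay on its miR-22-3p 8mer, and the crosslink peak was 51 nt downstream. In Socs3, the feedback inhibitor of the LIF pathway, the cluster held 42 reads against 0 (at least 14-fold, against a floor of 3 counts per cluster), with 7 reads on the miR-22-3p match and 55 on TGTTTACA, 45 nt downstream.

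For miR-135a-5p the Txnip site came first with 92 reads. Nfya, a subunit of the CCAAT-binding factor, followed with 13 reads in a cluster of 12 against 0 (at least 4-fold), and Rlim, an X-linked ubiquitin ligase, had 10 reads in a cluster of 9 against 0 (at least 3-fold). In both a listed match stood close by, AGCACTTA 20 nt upstream with 14 reads in Nfya and GGCACTTA 14 nt downstream with 11 reads in Rlim. Cdc42ep4, an effector of the GTPase Cdc42, and Mapk8, the kinase JNK, had 9 reads each, in clusters of 12 and 9 against 0. Neither cluster held another listed 7mer or 8mer, and they held 2 and 1 listed 6mers of other seeds. The Mapk8 isoform was listed at 0.525 FPKM. Lmbr1l, whose letters are shown above, had 9 reads on the match and 10 on the TGTTTACA that overlaps it. Among the clusters counted above, the highest tagged number over a miR-135a-5p site was 22 against 1 in Arhgef7, a guanine nucleotide exchange factor. It came with 5 reads on the match and 25 each on AGCACTT and GCACTTT, 27 and 28 nt downstream. This cluster reached only the last bases of the match. Mob1b, an activator of Lats kinases, had 6 reads on an 8mer in a cluster of 10 against 1, with TGTTATGA 23 nt upstream at 17 reads. Every cluster of this seed that also held another listed match had at least as many reads on that match.

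For miR-150-5p, after Txnip with 47 reads, Aebp2, a partner of Polycomb complexes, had 25 reads at chr6:140600694-140600700. Its cluster held 34 tagged reads against 1 with no other listed match, and its crosslink peak lay 43 nt upstream of the site. Cd81, a tetraspanin, had 20 reads in a cluster of 15 against 0 (at least 5-fold), again with no other match. Ankrd52, a subunit of the phosphatase that acts on Argonaute, had 18 reads on an 8mer in a cluster of 13 against 0 (at least 4.33-fold), with crosslink peaks on its first bases and GAGCCTG 11 nt downstream at 17 reads. Gab1, an adaptor of receptor tyrosine kinases, had 13 reads and a cluster of 9 against 0, with GTCTTCC 30 nt upstream at 10 reads. Nr1d2, a nuclear receptor of the circadian clock, had 11 reads on a conserved 8mer and no cluster. The clusters of Twf1, an actin-binding protein (33 against 0), and Mlec (25 against 0) held 6 and 8 reads on the miR-150-5p match, against 33 and 25 on other listed matches. The Twf1 cluster reached only the last bases of its match, and that of 6430527G18Rik (15 against 0) only the first base of a match with 0 reads. Chosen after their values were seen, Larp4b, a La-related RNA-binding protein, and the histone deacetylase gene Hdac4 had 10 and 8 reads at isoforms listed at 0.132 and 0.152 FPKM, with clusters of 10 and 8 against 0.

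For miR-296-3p the leading site was in Igf2bp1, an oncofetal RNA-binding protein, at chr11:95823590-95823596, with 27 reads at 38.4 FPKM and a phastCons of 0.989. Its cluster held 25 tagged reads against 0 untagged (at least 8.33-fold). A miR-22-3p match with 7 reads lay 66 nt upstream in the same cluster, the only one of the clusters counted above to hold sites of 2 of the 4 seeds. Mt2, a metallothionein listed at 1730 FPKM, had 16 reads in a cluster of 13 against 0, with the crosslink peak on the base before the match. The kinase gene Pim3 had 12 reads and a cluster of 13 against 1, and Rexo1, an RNA exonuclease homologue, 11 reads and a cluster of 14 against 0. Syde1, a GTPase-activating protein, had 10 reads in a cluster of 12 against 0, with TGCTGCT 9 nt downstream at 10 reads and CAGTATTA 27 nt downstream at 20 reads. In coding sequence, Fasn, the fatty acid synthase, had 8 reads with a cluster of 7 against 0, with AGCACTT 15 nt downstream at 6 reads. Also in coding sequence, Dst, a cytoskeletal linker, had 10 reads in a cluster of 10 against 0 that spans a splice junction and is not counted above.

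Txnip, the thioredoxin-interacting protein, was where 3 of the seeds had strong counts in 1 stretch of RNA. Its 3′ UTR sites held 92 reads for miR-135a-5p at chr3:96365055-96365061, 47 for the miR-150-5p 8mer at chr3:96365520-96365527 and 31 for miR-22-3p at chr3:96364991-96364997. All lay in a cluster of 828 nt with 234 tagged reads against 14 untagged (16.7-fold), which was left out of the cluster counts because of its width. The 12 listed matches in this UTR all had reads, and the highest were 322 and 317 on GCACTTTA and AGCACTT, 109 and 108 nt downstream of the miR-135a-5p match. The next listed match, TGCACTG, lay 19 nt downstream of the miR-135a-5p match with 105 reads. By reads, the miR-135a-5p match ranked 6 of the 12. Without Txnip the observed over expected ratios were 1.34 for miR-22-3p, 0.956 for miR-135a-5p, 0.960 for miR-150-5p and 1.22 for miR-296-3p.

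Sites of several of these seeds met in many 3′ UTRs, and some of these genes had reads on sites of more than 1 seed. Of 4432 genes with a 3′ UTR site of any of the 4, 1331 had sites of 2 or more seeds, 277 of 3 or more and 28 of all 4. Supported 3′ UTR sites of any were found in 814 genes, of 2 or more seeds in 62, of 3 in 3 and of all 4 in 0. The 3 genes were Txnip, Ankrd52 and Ddhd2, a phospholipase gene. Ankrd52 had 18 reads for miR-150-5p, 7 for miR-22-3p and 3 for miR-296-3p, and Ddhd2 had 1, 2 and 1. Of single 3′ UTR sites, 13.0% had a read for the 4 seeds together and 11.5% for control 8mers. No expected number was computed for the gene counts, so they are not called low or high.

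Textbook targets, in lists drawn from general knowledge and not from these libraries, were covered unevenly. For miR-22-3p, 10 of 15 genes had a site, 7 of them a site with a read and 2 a site in a cluster. Among all genes with a miR-22-3p site, 14.8% had a read at one and 0.702% had one in a cluster. Cdkn1a, the cell cycle inhibitor p21, had 13 reads at a conserved 3′ UTR site, chr17:29237175-29237181, in a cluster of 9 against 0 (at least 3-fold) with no other listed match. Erbb3, a receptor tyrosine kinase, had 5 reads on a conserved 8mer in a cluster of 5 against 0. Tet2, the 5-methylcytosine dioxygenase, had 2 reads at its 3′ UTR site, 1 at a coding site and 0 at its other coding sites. Single reads lay on the Sirt1 3′ UTR 8mer and the Max 3′ UTR site, so these genes rest on 1 read each. Sp1, listed at 30.01 FPKM, Bmp7 and Hdac4 had a miR-22-3p site with 0 reads.

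For miR-135a-5p, 8 of 13 list genes had sites, 11 in all, and none of these had a read, where 10.4% of all genes with such a site had one and 0.446% had one in a cluster. The sites included conserved ones in Stk38l, Foxo1 and Smad5, at 12.8, 8.43 and 6.81 FPKM, and a coding site of Apc at 2.77 FPKM. Cplx1, Jak2, Lats2 and Nr3c2 held the others, at 0.110 to 1.62 FPKM. For miR-150-5p, 6 of 12 list genes had a site, and 1, Myb, had reads, where 10.4% of genes with such a site had a read and 0.576% one in a cluster. Myb had 9 reads on the 3′ UTR 8mer shown above, in a cluster of 8 against 0 (at least 2.67-fold), 1 read on another 3′ UTR 8mer at chr10:20845117-20845124 and 0 on a coding 8mer, although its isoform was listed at 0.327 FPKM. Elk1, Notch3, Creb1 and P2rx7 had sites with 0 reads, at 1.38 to 7.78 FPKM. For miR-296-3p, 2 of the 3 list genes were in the table and neither had a site, where 11.2% of genes with a site had a read and 0.524% one in a cluster. Among genes with any 7mer or 8mer entry, of the listed seeds or of the control 8mers, 63.1% had a read at one and 10.8% had one in a cluster.

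Other seed matches were common beside these sites. Of the 72 sites in clusters, 29 shared the cluster with another listed 7mer or 8mer (40.3%, 28.9 to 52.5), against 51.8% for the other listed seeds and 48.7% for control 8mers. The other match had more reads in 17 of the 29, the same number in 5 and fewer in 7. Over all regions, sites within 30 nt of another listed 7mer or 8mer were supported more often than the rest for miR-22-3p (13.9% against 9.58%) and miR-135a-5p (9.54% against 6.52%), with values of 10.2% against 7.97% for miR-296-3p and 7.29% against 6.86% for miR-150-5p. The control 8mers had 9.78% against 6.52%. With no such neighbour on either side of the comparison, observed over expected support was 1.31 (1.20 to 1.44) for miR-22-3p, 1.25 (1.09 to 1.44) for miR-296-3p, 0.999 (0.874 to 1.14) for miR-150-5p and 0.9503 (0.836 to 1.08) for miR-135a-5p. The ratios above 1 were thus about as large away from other listed sites. Sites that overlapped another listed match made up 571 of 4578 for miR-150-5p, and 3.15% of them were supported (1.88 to 4.94), against 7.54% of its other sites (6.74 to 8.40). These groups were not matched on region or expression.

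Crosslink peaks show how close Ago2 stood to a match, since in iCLIP the crosslinked base stops the reverse transcriptase. Around clustered sites of the 4 seeds together, 11 of 71 peak positions (15.5%, 7.996 to 26.0) lay 10 to 1 nt upstream of the match, against 893 of 2860 (31.2%, 29.5 to 33.0) for the other listed seeds and 284 of 2609 (10.9%, 9.72 to 12.1) for control 8mers. The interval of the 4 seeds lies below the share of the other listed seeds and holds that of control 8mers. The counts were 6 of 14 for miR-296-3p (42.9%, 17.7 to 71.1), 2 of 13 for miR-135a-5p, 2 of 18 for miR-150-5p and 1 of 26 for miR-22-3p (3.85%, 0.0973 to 19.6). Tied peaks of 1 cluster count as separate positions, so the positions are not independent, which the intervals leave out. The 14 positions of miR-296-3p came from 9 clusters. The 71 came from 57 clusters and count the Igf2bp1 peak once for each of its sites. The miR-22-3p interval lies below the share of the other listed seeds, although this seed had the highest support of the 4. The median position in nt was -13.5 for miR-22-3p (negative is upstream), -12.5 for miR-150-5p, -1 for miR-296-3p and 1 for miR-135a-5p, against -2 for the other listed seeds and -14 for control 8mers. The deposited positions were read as counted from the left end of a cluster on both strands, which is open to an error of 1 nt.

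**Figure D5:**
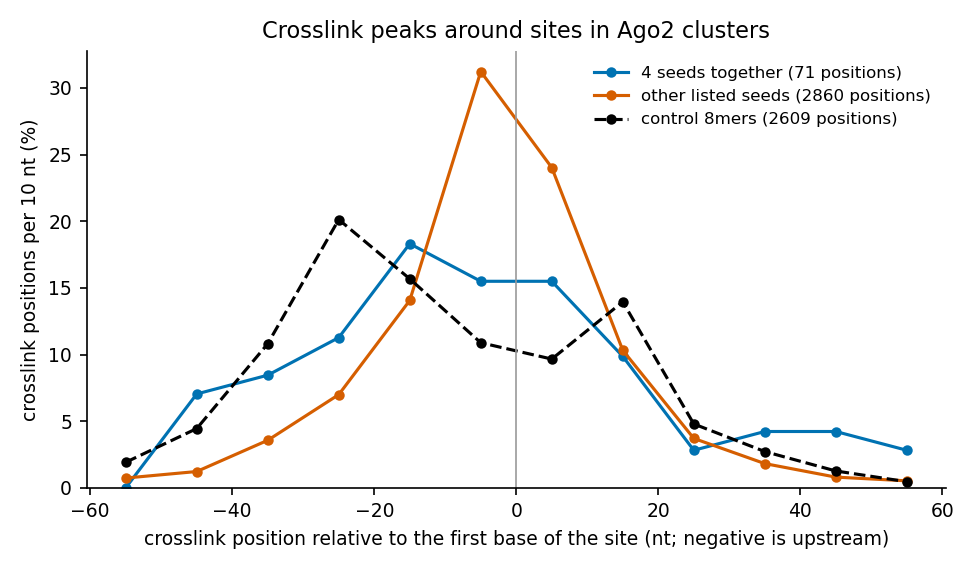
Percentage of crosslink peak positions in each 10 nt bin relative to the first base of the match (negative is upstream), for clustered sites of the 4 seeds together (71 positions), the other listed seeds (2860) and control 8mers (2609). In the 10 nt just upstream of the match the 4 seeds have 15.5%, against 31.2% for the other listed seeds and 10.9% for control 8mers.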

How the data were processed

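Ago2 iCLIP was made from 1 tagged and 1 untagged library of mouse embryonic stem cells. Per the submitters' processing notes, the tools were Bowtie and TopHat (no versions) and the builds mm9 and NCBIM37. No source used here names the cluster caller or how expression was measured. The authors deposited 6211 clusters with p under 0.05. The peak height column is, per the file headers, a signal counted in reads, and their text column joins tagged reads, log2 enrichment and p. The authors' log2 enrichment was matched within 0.005 in 100% of clusters by the ratio of tagged to untagged numbers, each with 1 added, where the untagged one is whole. It was 2 in 134 clusters, 4 in 36 and 3 in 0, so its scaling is unknown. In the deposited site table, coverage is rpm and expression is FPKM of at least 0.1, both computed by the authors, phastCons is a score per the file headers, and the authors' log2 coverage was not used. All 1641948 rpm values (100%) were whole multiples of 1.27 within 0.001 reads, which gave 789000 reads. With 1 library per group no count test could be run.

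Entries were made distinct by position and strand, which removed 22927. Control sites were 724083 places of the 966 8mers that extend no listed 7mer and overlap no listed site. Clusters across splice junctions (216) and others over 200 nt (2) were left out, leaving 5993. The smallest cluster held 5 reads, and where the untagged number is 0, a fold is taken against 3 counts in that cluster. Shares have exact Clopper-Pearson 95% intervals, and ratio intervals are those of the observed share divided by the expected share. Sites and genes are not replicates, and no p was computed. Sites named are, per seed, up to 6 with the most reads, up to 6 in the clusters of lowest p, target-list genes with a cluster, with reads or of highest FPKM without reads, the 3 genes with the most sites, and genes with supported 3′ UTR sites of at least 3 seeds. Some target-list genes enter the counts but are not reported here by name. Members and lists were chosen with earlier results of these data known. Scripts (Python 3.11.15, numpy 2.4.6, pandas 2.3.3, scipy 1.17.1, matplotlib 3.10.9) were tested on simulated data. Alternatives were at least 2 reads, at least 1 FPKM, the lowest FPKM of a site, 3′ UTRs alone, nested or overlapping matches, other control sets and strata, and stricter or wider cluster sets.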

Additional observations from a re-analysis of the deposited data

How the results depend on the processing

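No difference whose interval excluded 0, and no ratio whose interval excluded 1, turned its direction under the alternatives run. Values whose intervals held 0 or 1 did: the ratio was 1.02 for miR-135a-5p with control 8mers of equal G+C count and 1.0001 for miR-150-5p without sites overlapping other listed seeds, and the 8mer minus 7mer difference with at least 2 reads was -1.29 points for miR-135a-5p and 0.512 for miR-150-5p in 3′ UTRs and 1.498 for miR-296-3p in coding sequence (0.425 without such overlaps). Observed over expected support ranged, over 12 settings each, from 1.18 to 1.55 for miR-22-3p, 1.16 to 1.42 for miR-296-3p, 0.921 to 1.0001 for miR-150-5p and 0.885 to 1.02 for miR-135a-5p. The values beyond the counting interval were 1.55 (miR-22-3p) and 1.42 (miR-296-3p) with at least 2 reads, and 1.18 (1.10 to 1.27) for miR-22-3p with control 8mers of equal G+C count. The cause was not tested. Supported shares were 3.38%, 1.91%, 2.10% and 2.81% for miR-22-3p, miR-135a-5p, miR-150-5p and miR-296-3p with at least 2 reads, 15.1%, 10.1%, 10.5% and 12.5% at 1 FPKM or more, and 16.3%, 11.5%, 11.0% and 12.7% in 3′ UTRs alone. With the authors' p under 0.01, 0.255% of miR-22-3p and 0.1504% of miR-135a-5p sites lay in a cluster, and 0.802% of miR-22-3p sites did at 1 FPKM or more. With at least 2 reads, the 3′ UTR excess of miR-22-3p was 3.69 points and 3 of its target-list genes, in place of 7, had a supported site. Of the 24 alternatives for 8mers against 7mers, at least 2 reads brought the miR-22-3p 3′ UTR interval to hold 0 (1.63, -1.25 to 5.61), and 1 FPKM or more brought the miR-150-5p coding interval to exclude it (-5.67, -10.5 to -0.0558). The 3′ UTR excess likewise came to exclude 0 for miR-150-5p at 1 FPKM or more (3.57) and for miR-296-3p with at least 2 reads (2.01). Leaving out Txnip, neighbouring sites or noncoding transcripts was chosen after seeing the data and moved no value beyond its interval. At 789000 reads, most supported sites hold 1 read, which limits every share. No paired analysis was possible because each group has 1 library.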
